A study of Mus musculus with 9 samples.

Results

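RNA sequencing of E12.5 mouse cortex was examined for 9 genes whose proteins bring the CCR4-NOT complex to mRNAs or act beside it: Tob1, Tob2, Btg1, Btg2, Btg3, Zfp36l1, Zfp36l2, Pum2 and Cnot4. They were chosen by name and matched by symbol to the Ensembl identifiers of the counts table. All 9 were found among its 57010 genes, and all 9 had more than 10 reads in every embryo, the minimum for testing that 13680 genes met. Each library came from the cortex of 1 embryo, with 3 control (Ctrl) embryos whose genotype label is WT, 3 Cnot3 cKO embryos and 3 Cnot3;Trp53 dcKO embryos. In both mutants Emx1-Cre removes floxed Cnot3, and in dcKO also floxed Trp53, from radial glial cells of the dorsal telencephalon and from their progeny, so other cells of the dissected cortex keep both genes. Whether the control embryos carried floxed alleles or Cre was not given in the sources used here.

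CCR4-NOT shortens the poly(A) tails of mRNAs and so starts their decay. It has little sequence preference of its own, and adaptor proteins choose many of its targets. TOB and BTG proteins share an N-terminal domain that binds the deadenylase subunits CNOT7 and CNOT8, and TOB proteins also bind the poly(A)-binding protein. Zfp36l1 and Zfp36l2 carry zinc fingers that bind AU-rich elements in 3′ UTRs and recruit the CNOT1 scaffold, while Pum2 binds Pumilio elements. Cnot4 is a ubiquitin ligase that associates with the complex. In the developing cortex Btg2, also called Tis21, is known as a marker of progenitors that are about to produce neurons, and it is also a textbook target of p53.

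The mRNAs of several adaptors themselves hold elements that adaptors read, as do those of many other genes. One annotated transcript per gene was searched on the sense strand (GENCODE M21, GRCm38, the isoform with the longest coding sequence) for the Pumilio element TGTANATA and for the AU-rich heptamer TATTTAT. Btg1 and Pum2 each held 2 Pumilio elements, and the other 7 genes held 0. Among 11903 tested genes with an annotated 3′ UTR, 26.2% had at least 1 Pumilio element and 29.5% at least 1 AU-rich heptamer. Length matters for such counts. Of the UTRs within 25% of the Btg1 length of 4166 bases, 52.5% had at least 1 Pumilio element. Around the Pum2 length of 2861 bases the share was 44.2%. At least 2 elements, as in Btg1 and Pum2, were found in 21.3% and 14.3% of those UTRs. One Pumilio element of Btg1 and both of Pum2 are written in capitals here, because Pum2 itself binds this element.
Btg1, chr10:96622023-96622048, plus strand: taattttgcTGTAAATAttaacgggg
Pum2, chr12:8750156-8750181, plus strand: ttatagagaTGTATATAgaattatag
Pum2, chr12:8750409-8750434, plus strand: gtacagaatTGTATATActtataatt

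Zfp36l1 and Zfp36l2 each held 3 AU-rich heptamers, the element their own proteins bind, in UTRs of 1835 and 1822 bases. At least 3 heptamers were found in 3.60% and 3.59% of UTRs within 25% of those lengths. Btg3 held 2 in a UTR of only 439 bases (at least 2 in 2.43% of UTRs of similar length). Tob2, Btg2 and Pum2 held 1 each, where 44.4%, 42.3% and 48.9% of UTRs of similar length held at least 1. Tob1, Btg1 and Cnot4 held 0. A match describes letters in a sequence and is not evidence of binding. The heptamers of the Zfp36 pair and of Btg3 are shown in capitals.
Zfp36l1, chr12:80108424-80108448, minus strand: atcaaaacgTATTTATtgccaaact
Zfp36l1, chr12:80108383-80108407, minus strand: ttttgttcaTATTTATcgggatgac
Zfp36l1, chr12:80108169-80108193, minus strand: ctgttggatTATTTATtttagaaat
Zfp36l2, chr17:84184916-84184940, minus strand: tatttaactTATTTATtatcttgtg
Zfp36l2, chr17:84184868-84184892, minus strand: tccatactgTATTTATcgagtatga
Zfp36l2, chr17:84184682-84184706, minus strand: tgtatgtaaTATTTATttcattaat
Btg3, chr16:78360043-78360067, minus strand: ggacttgagTATTTATatattgtgc
Btg3, chr16:78359939-78359963, minus strand: tatataagtTATTTATacagaagga

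Before the adaptors were compared, the targeted genes were checked against the labels. Cnot3 was at 2756 to 3291 normalized counts (reads scaled to a common library size by TMM) in Ctrl, at 408 to 484 in cKO and at 206, 1353 and 534 in dcKO replicates 1, 2 and 3. Trp53 was at 6029 to 7123 in Ctrl, 4612 to 4693 in cKO and 423, 3098 and 579 in dcKO. The dcKO replicate 2 library therefore kept more of both targeted transcripts than the other dcKO libraries, and values without it are given for the adaptors whose call or size it moved. Total reads were 21193798 to 28869816 for Ctrl libraries, 24835674 to 25946075 for cKO and 23275370 to 45073349 for dcKO. The dcKO libraries also differed most among themselves, with a median gene-wise SD of 36.4% of the mean, against 11.2% in Ctrl and 11.2% in cKO (n = 3 each). The adaptors were about as steady as other genes, since 5 of the 9 lay below that median in Ctrl, 7 in cKO and 7 in dcKO. Radial glia, intermediate progenitor and cortical neuron markers were detected in every embryo and their summed levels overlapped between Ctrl and each mutant. Single radial glia markers did not all stay level: 6 of 9 were lower in every cKO embryo than in every control, 3 were lower at an unadjusted p below 0.05, and the median log2 fold change was -0.43 in cKO and 0.04 in dcKO. Their part in the cKO values of the adaptors was not tested.

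Markers of other cell types differed as well. The summed counts of 5 choroid plexus markers were 138 to 294 in Ctrl, 615 to 2286 in cKO and 523 to 3198 in dcKO, and those of 7 mesenchyme markers were 21911 to 24135, 12756 to 19559 and 9119 to 14539. The 6 endothelial markers summed to 5630 to 7652 in Ctrl, 5580 to 7932 in cKO and 3634 to 4189 in dcKO. The 6 microglial markers summed to 1017 to 1225 in Ctrl, 1044 to 2142 in cKO and 403 to 886 in dcKO. The 6 erythroid markers summed to 170656 to 249088, 212777 to 328411 and 107743 to 153964. Single genes were mixed. In dcKO 1 of 5 tested microglial and 1 of 6 erythroid genes had a log2 fold change above 0, as did 3 of 6 tested mesenchyme genes in cKO. None of these marker genes was at 0 in every embryo. Their part in the adaptor values was not tested, and in bulk tissue fewer cells of a type cannot be told apart from less RNA per cell.

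In control cortex the adaptors spanned more than an order of magnitude in level, counted as normalized reads per kb of exon. Zfp36l1, at 1728 ± 204 (SD, n = 3), and Pum2, at 1682 ± 101, were the most abundant and overlapped. Btg2 followed at 928 ± 95 and Btg1 at 694 ± 56, each apart from its neighbours in every embryo, and Tob1 came next at 423 ± 88. Btg3, at 238 ± 42, and Zfp36l2, at 233 ± 22, overlapped. Tob2 was at 177 ± 23, overlapping Btg3 but below every Zfp36l2 value, and Cnot4 was lowest at 135 ± 7.5. Within the BTG/TOB genes Btg2, Btg1 and Tob1, in that order, covered most of the reads per kb, with Btg3 and Tob2 as minor members. The order differed for mean counts not divided by length. There Btg1 (3664) was above Btg2 (2546), and Tob2 (1177) above Tob1 (969).

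No adaptor was called in any comparison of genotypes by edgeR or DESeq2 when the 9 embryos were fitted by genotype alone. A call required an adjusted p below 0.05 (Benjamini-Hochberg, edgeR's quasi-likelihood test) together with a log2 fold change beyond 1 in either direction. In cKO versus Ctrl this gave 0 of 9 adaptors and 0.0146% of all tested genes. In dcKO versus Ctrl it gave 0 of 9 and 0%, and in dcKO versus cKO 0 of 9 and 0.0146%. When both mutants were averaged and compared with Ctrl (6 embryos against 3), 6.15% of all genes but 0 of 9 adaptors were called, and 13% of all genes but 0 adaptors had an adjusted p below 0.05 at any fold. DESeq2, with the same thresholds, called 8.82% of genes in cKO, 8.46% in dcKO, 0.38% in dcKO versus cKO and 9.66% in the averaged mutants, again with 0 adaptors in each. The 95% intervals show how far this goes. A 2-fold decrease lay within the Tob2 and Zfp36l1 intervals in cKO, and a 2-fold increase within the Btg3 intervals in dcKO and the averaged mutants and within the Zfp36l1 and Pum2 intervals in dcKO versus cKO. The other intervals of the 9 adaptors stayed inside a 2-fold change.

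The label codes of the embryos hold a number whose meaning was not given in the sources used here. It is shared by a control and a cKO embryo in 2 cases and by a control and a dcKO embryo in 1. A fit with this number as a block compares mutants and controls within those 3 pairs alone, so that its dcKO values rest on a single pair and its spread on 1 residual degree of freedom. Deviations from the group means correlated at 0.19 and -0.013 within the 2 control and cKO pairs and at -0.54 within the control and dcKO pair. A shared number thus did not go with similar deviations in every pair. Values from this fit are given as those of the number block, because they moved several calls. Such passes were common among all genes. With the number block an edgeR adjusted p below 0.05 was found for 4 of 9 adaptors and 45% of all genes in cKO, 2 of 9 and 29% in dcKO, and 5 of 9 and 45.1% in the averaged mutants, and 1 of 9 adaptors and 11.9% of all genes were called in dcKO versus Ctrl.

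Leaving out 1 library moved these counts in both directions. In the averaged mutants 0 adaptors and 0 of all genes had an edgeR adjusted p below 0.05 without any 1 of the 3 Ctrl or 3 cKO libraries, where 2866 to 3906 genes had an unadjusted p below 0.05. Without dcKO replicate 3, 2 of 9 adaptors and 29.7% of all genes had an edgeR adjusted p below 0.05 in cKO, 3 of 9 and 49.2% in dcKO, 3 of 9 and 45.1% in the averaged mutants, and 3 of 9 and 26.6% in dcKO versus cKO. Without dcKO replicate 2 the counts were 2 of 9 and 18.5% in cKO, 0 of 9 and 18.1% in dcKO, and 3 of 9 and 27.6% in the averaged mutants, and without dcKO replicate 1 they were 1 of 9 and 12.6% in cKO, 0 of 9 and 0% in dcKO, and 0 of 9 and 9.67% in the averaged mutants. By limma, 4 of 9 adaptors and 54.9% of all genes had an adjusted p below 0.05 in cKO, 4 of 9 and 52.7% in dcKO, and 5 of 9 and 60.1% in the averaged mutants. These were Tob2, Btg1 and Btg2 in each, with Zfp36l1 in cKO, Btg3 in dcKO and both in the averaged mutants. When edgeR was fitted to the 2 groups compared alone, 3 of 9 adaptors (Tob2, Btg2 and Zfp36l1) and 48.2% of all genes passed in cKO, and 0 of 9 and 0% in dcKO.

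The members' counts at an unadjusted p below 0.05 were near the background. In cKO 0 adaptors were higher and 1 was lower, against 15.3% and 11.7% of all genes. In dcKO 2 were higher and 1 lower, against 18% and 11.2%, and in the averaged mutants 1 was higher and 1 lower, against 18.5% and 14.3%. Between dcKO and cKO 0 of 9 passed, against 4.42% of all genes. Counted by embryos that did not overlap, 5 adaptors were lower and 0 higher in cKO, where 28% of all genes were lower and 29.2% higher. In dcKO 1 was lower and 2 were higher, against 11.2% and 15.6%. In all 6 mutants 1 was lower and 0 higher, against 8.98% and 13%. Between dcKO and cKO 0 of 9 separated, against 2.62% of genes higher and 3.63% lower. The median log2 fold change of the 9 adaptors was -0.17 in cKO, 0.02 in dcKO and 0.03 in the averaged mutants, beside 0.01, 0.11 and 0.06 for all genes.

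**Figure D1:**
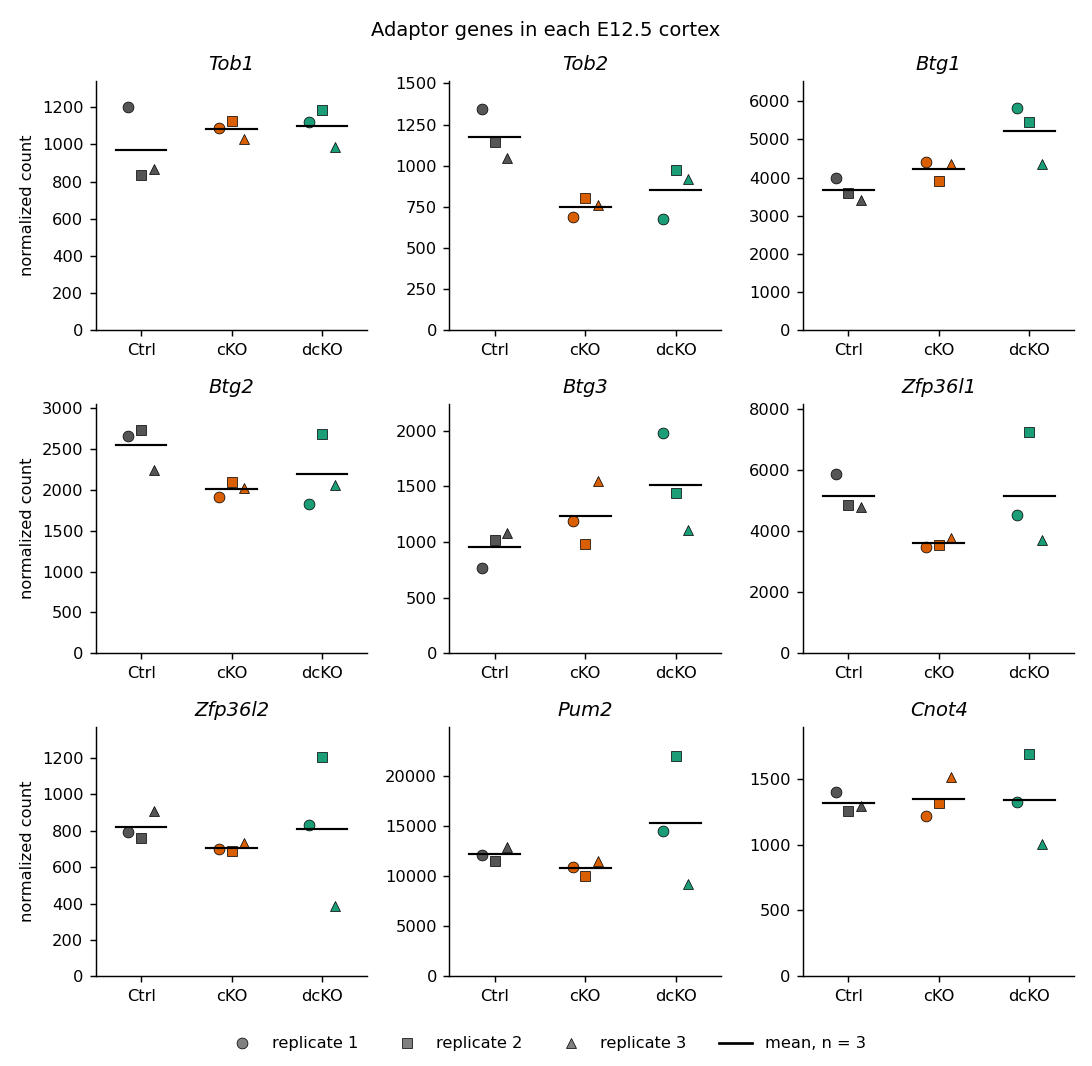
Normalized counts (vertical axes, from 0) of the 9 adaptor genes in each embryo, by genotype, where symbols mark replicates 1 to 3 and lines mark the mean of 3 embryos. Tob2 was at 1046 to 1343 in Ctrl and at 674 to 974 in the 6 mutants, and the dcKO embryos were widely spread for Zfp36l1, Zfp36l2, Pum2 and Cnot4.

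Tob2 was the adaptor whose level separated Cnot3-deleted from control cortex in every embryo. TOB2 links deadenylase subunits to the poly(A)-binding protein, and its gene lies at chr15:81848272-81858796 on the minus strand (GRCm38 in GENCODE M21, as for every gene position given here). Normalized counts were 1343, 1143 and 1046 in Ctrl, 691, 801 and 763 in cKO, and 674, 974 and 918 in dcKO. All 6 mutants lay below the lowest control. The log2 fold change was -0.65 (SE 0.21) in cKO, with an edgeR p of 0.0105, an adjusted p of 0.0871 and a DESeq2 adjusted p of 0.0236, and -0.46 (SE 0.21) in dcKO, with an edgeR p of 0.0489 and an adjusted p of 0.170. Averaged over both mutants it was -0.55 (SE 0.17), with an edgeR adjusted p of 0.0603 and a DESeq2 adjusted p of 0.0161. In DESeq2, 1 of 9 adaptors and 16.7% of all genes had an adjusted p below 0.05 in cKO, and 1 of 9 and 24.4% in the averaged mutants. The exact two-sided permutation test over 6 and 3 embryos gave p = 0.0238, the smallest it can give. Any gene whose 6 mutants all lie on the same side of the controls receives that value. Among all genes, 8.98% lay below in this way and 13% above. Without dcKO replicate 2 or 3 the averaged value was -0.61 or -0.58, with an edgeR adjusted p of 0.0235 or 0.0125. The call at an adjusted p of 0.05 therefore depended on the test and the libraries. In cKO the limma adjusted p was 0.000294, where 54.9% of all genes were below 0.05, and edgeR fitted to the cKO and Ctrl embryos alone gave 0.00231, where 48.2% were. For cKO versus Ctrl, edgeR adjusted p was 0.155 to 0.30 when any 1 Ctrl or cKO library was left out, and in the averaged mutants it was 0.0755 to 0.264 without any 1 library other than dcKO replicates 2 and 3. In cKO, edgeR adjusted p was 0.0412, 0.0384 and 0.0218 without dcKO replicates 1, 2 and 3, whose only role in that comparison is in the shared estimate of spread. Among the pairs of a mutant and a control whose label codes share a number, the log2 ratio was -0.74 and -0.58 for cKO and -0.19 for dcKO. The number block gave -0.66 in cKO (edgeR adjusted p = 0.00132). It gave -0.19 in dcKO and -0.43 in the averaged mutants, with 1 pair behind the dcKO part. A correction for the GC content of transcripts gave -0.18 in dcKO (edgeR adjusted p = 0.615), while limma gave -0.72 in dcKO (limma adjusted p = 0.0058).

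Tob1, the close relative of Tob2 on chr11:94211454-94215495, did not share this pattern. Its normalized counts were 1200, 838 and 868 in Ctrl, 1089, 1124 and 1026 in cKO, and 1123, 1184 and 986 in dcKO. Ctrl replicate 1 was above all 6 mutants and the other controls were below all 6, so the groups overlapped. On the log2 scale the difference was 0.16 (95% interval -0.28 to 0.59) in cKO and 0.18 (-0.26 to 0.62) in dcKO. These values rested on the controls, being 0.34 and 0.36 without Ctrl replicate 1 and 0.06 and 0.09 without Ctrl replicate 2.

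Btg1, an antiproliferative BTG protein encoded on chr10:96617006-96622809, measured higher in dcKO. Normalized counts were 3991, 3589 and 3411 in Ctrl, 4403, 3899 and 4355 in cKO, and 5812, 5442 and 4362 in dcKO. Every dcKO embryo lay above every control, while cKO replicate 2 fell inside the control range. In edgeR the log2 fold change was 0.51 (SE 0.16) in dcKO, with an edgeR p of 0.0103, an adjusted p of 0.0820 and a DESeq2 adjusted p of 0.0518, and 0.20 (SE 0.16) in cKO. Leaving out dcKO replicate 3 gave 0.62 with an edgeR adjusted p of 0.00263. The same correction for GC content, whose value for Btg1 is 43.1%, brought the dcKO difference to 0.08 and turned the cKO difference to -0.07. In the same pairs the log2 ratios were -0.03 and 0.28 for cKO and 0.35 for dcKO.

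Btg3, on chr16:78332637-78377192, had the largest positive difference of the 9 genes in dcKO over all embryos. Normalized counts were 762, 1016 and 1083 in Ctrl, 1188, 978 and 1543 in cKO, and 1974, 1438 and 1108 in dcKO. The dcKO embryos were all above the controls, but replicate 3 exceeded the highest control only slightly. Its log2 fold change was 0.66 (SE 0.26) in dcKO, with an edgeR p of 0.0309 and an adjusted p of 0.134, and 0.37 (SE 0.26) in cKO, where it was 0.17 without cKO replicate 3 and 0.24 without Ctrl replicate 1. The dcKO value was 0.84 without dcKO replicate 3, with an edgeR adjusted p of 0.0125, but 0.42 without dcKO replicate 1, with an adjusted p of 0.409, and 0.39 with the GC correction, which also brought the cKO value to 0.17. Within pairs the log2 ratio was 0.36 and 0.60 for cKO and 0.03 for dcKO, and the number block gave 0.48 in cKO (edgeR adjusted p = 0.00859) and 0.03 in dcKO (0.920). Btg3 overlaps Cxadr, a gene on the opposite strand with up to 9516 normalized counts; the libraries were stranded, but whether counting used the strand was not given in the sources used here, so the Btg3 values are uncertain.

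Btg2, on chr1:134075170-134079120, measured lower in cKO. Normalized counts were 2662, 2728 and 2248 in Ctrl, 1908, 2091 and 2018 in cKO, and 1829, 2684 and 2055 in dcKO. The cKO embryos were all below the controls, and among dcKO only replicate 2, the library that kept most Cnot3 and Trp53, reached the control range. The log2 fold change was -0.34 (SE 0.18) in cKO, with an edgeR p of 0.0850 and an adjusted p of 0.247, and -0.22 (SE 0.18) in dcKO. The dcKO value was -0.39 without dcKO replicate 2 and -0.10 without dcKO replicate 1. In the averaged mutants leaving out dcKO replicate 2 gave -0.37 with an edgeR adjusted p of 0.0443, where the value over all embryos was -0.28 with an adjusted p of 0.233. The ratios within pairs sharing a label number were -0.35 and -0.43 for cKO and -0.13 for dcKO, and the number block gave -0.39 in cKO (edgeR adjusted p = 0.0102) and -0.26 in the averaged mutants (0.0439).

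The lower Btg2 values in cKO stood beside higher levels of most other p53 targets tested. Of 13 tested genes in a list of 16 p53 targets that did not include Btg2, 8 were higher at an unadjusted p below 0.05 in cKO and 0 were lower, with a median log2 fold change of 1.39. In dcKO 0 were higher and 3 lower, with a median of -0.05. The log2 fold change in cKO was above 0 in 10 of the 13 genes, and the lowest was -0.39. Mdm2, named after its values were seen, was lower in every cKO embryo (1161 to 1379 normalized counts) than in every control (1525 to 1809). Eda2r, a TNF-family receptor, had a log2 fold change of 4.22 in cKO (edgeR adjusted p = 0.0232) and 0.24 in dcKO. Cdkn1a, the cell cycle inhibitor p21, had 2.46 and 0.21, Ccng1 had 2.39 and 0.31, and Trp53inp1 had 1.39 and 0.55. In edgeR the adjusted p of the other 3 in cKO was 0.0509, 0.0509 and 0.0514, and in DESeq2 all 4 were below 0.05.

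**Figure D2:**
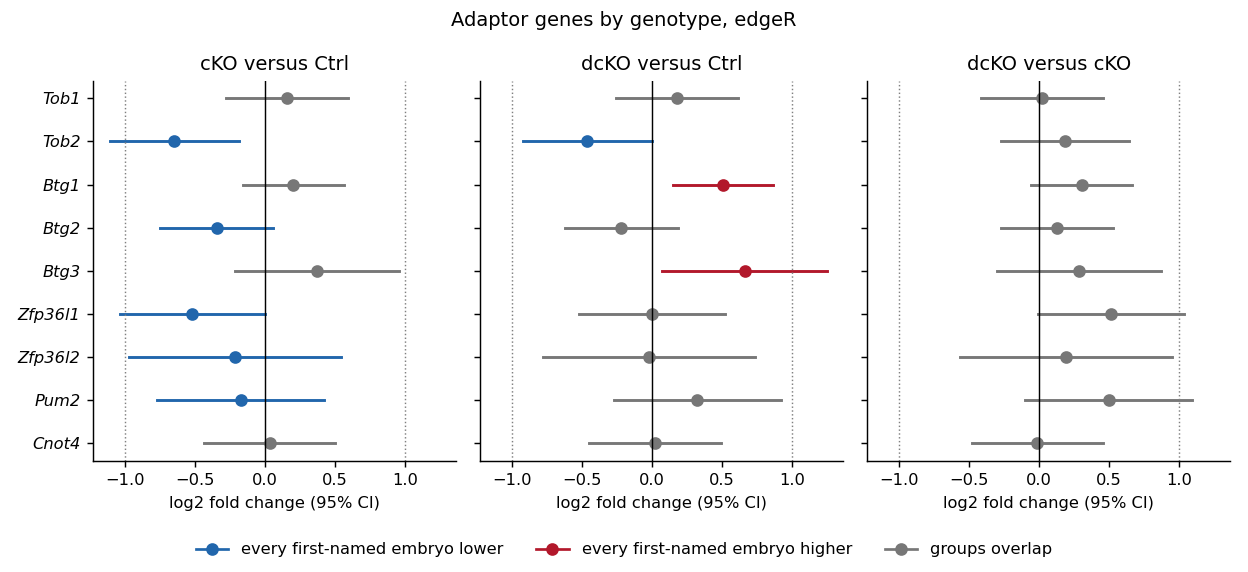
Log2 fold changes (points) with 95% intervals (lines) of the 9 adaptors from edgeR for cKO versus Ctrl, dcKO versus Ctrl and dcKO versus cKO, each from 3 against 3 embryos, with dotted lines at a 2-fold change. Blue marks genes lower in every embryo (5 in cKO, 1 in dcKO), red marks genes higher in every embryo (2 in dcKO), and grey marks overlap.

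The shares of 3 BTG/TOB genes in the sum over the family did not overlap between control and mutant embryos, while the sum itself did. The 5 genes together were at 2272 to 2643 normalized reads per kb in Ctrl, 2356 to 2508 in cKO and 2421 to 3032 in dcKO. Btg2 made up 36.7%, 40.3% and 36.1% of that sum in the controls, 28.9%, 32.4% and 29.3% in cKO, and 23.4%, 32.3% and 30.9% in dcKO. Every mutant was below every control, including dcKO replicate 2, whose Btg2 count itself was in the control range. Btg1 made up 28.6%, 27.6% and 28.5% in the controls, 34.7%, 31.4% and 32.9% in cKO, and 38.6%, 34.0% and 34.2% in dcKO. All 6 mutants were above the controls. Btg1 was thus the largest part of the family in 5 of the 6 mutants and Btg2 in all 3 controls.

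The share of Tob2 also separated: it was 7.16% ± 0.40 (SD, n = 3) for Ctrl but 4.66% ± 0.40 for cKO and 4.69% ± 1.1 for dcKO. The shares of Tob1 and Btg3 overlapped, with Btg3 at 9.77% ± 2.4 in Ctrl, 12.7% ± 2.5 in cKO and 13.5% ± 3.3 in dcKO. These shares do not depend on the library scaling, were computed after the counts of each embryo had been seen, and are given as a description with no test. Shares of 1 sum are not independent of each other, and how often such shares separate in other gene families was not computed. The GC content of the transcripts is 53.4% for Tob2, 49.7% for Btg2 and 43.1% for Btg1, and its part in the shares was not tested. With the GC correction the averaged mutants differed from Ctrl by -0.38 for Tob2, -0.35 for Btg2 and 0.01 for Btg1, on the log2 scale, with edgeR adjusted p of 0.160, 0.104 and 0.977. Shares were not computed after this correction.

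**Figure D3:**
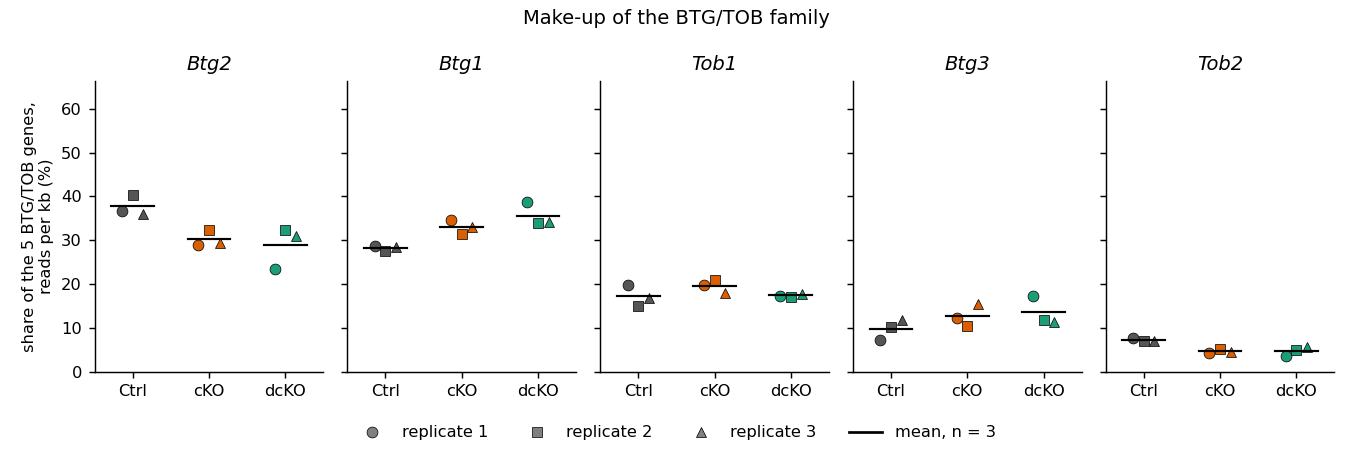
Share of each BTG/TOB gene in the summed reads per kb of the 5 genes (vertical axis, %, from 0) in each embryo, by genotype, with lines at the mean of 3 embryos. The mutants lie below the controls for Btg2 and Tob2 and above them for Btg1, while Tob1 and Btg3 overlap.

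Zfp36l1, on chr12:80107754-80113013, was below every control in all cKO embryos, while dcKO and Ctrl overlapped. Normalized counts were 5870, 4851 and 4782 in Ctrl, 3481, 3564 and 3796 in cKO, and 4546, 7244 and 3709 in dcKO. The cKO embryos were tightly grouped (SD 4.52% of the mean) below every control, and the dcKO embryos lay on both sides of the control range. For cKO the log2 fold change was -0.52 (SE 0.23), with an edgeR p of 0.0515 and an adjusted p of 0.188. In dcKO it was 0.00 (95% interval -0.52 to 0.52), and it was -0.32 without dcKO replicate 2 and 0.19 without dcKO replicate 3. The direct comparison of dcKO with cKO gave 0.52 (SE 0.23), with an edgeR p of 0.0515 and an adjusted p of 0.889, so the difference between the mutants did not pass. Without dcKO replicates 2 and 3 in turn, the cKO difference had edgeR adjusted p of 0.0321 and 0.0418, and without dcKO replicate 3 the dcKO versus cKO difference was 0.71 with an adjusted p of 0.0240, but it was 0.19 (0.999) without dcKO replicate 2 and 0.17 (0.603) with the number block. The averaged mutants differed from Ctrl by -0.26 (adjusted p = 0.399) and, without dcKO replicate 2, by -0.42 (0.0324). Zfp36l1 was lower in each of the 3 pairs that share a label number, with log2 ratios of -0.72 and -0.35 for cKO and -0.37 for dcKO. The number block gave -0.54 in cKO (edgeR adjusted p = 0.000812), -0.37 in dcKO (0.105) and -0.45 in the averaged mutants (0.00113).

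Zfp36l2, on chr17:84183931-84187947, was much less abundant per kb than Zfp36l1 in controls. Normalized counts were 792, 763 and 910 in Ctrl, 702, 690 and 731 in cKO, and 831, 1206 and 387 in dcKO. The cKO embryos were below the controls by a small margin, and dcKO held both the highest and the lowest embryo of the series. The log2 fold change was -0.21 (95% interval -0.97 to 0.54) in cKO and -0.02 (-0.78 to 0.73) in dcKO. The GC correction brought the cKO value to -0.06, and for dcKO leaving out dcKO replicate 2 or 3 gave -0.43 or 0.31. The number block, with 1 dcKO embryo against 1 control, gave -1.23 in dcKO and -0.68 in the averaged mutants. Zfp36, the third gene of this family tested, was listed at 74 to 120 normalized counts in all embryos and contributed 0.764% to 2.30% of the family's reads per kb. Zfp36l1 supplied 83.4% to 90.4% of them in every genotype.

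Pum2, on chr12:8674134-8752581, was the adaptor with most reads. Normalized counts were 12128, 11525 and 12979 in Ctrl, 10959, 10031 and 11519 in cKO, and 14559, 22041 and 9251 in dcKO. The highest cKO embryo was just below the lowest control, and the dcKO embryos spanned more than 2-fold. The log2 fold change was -0.17 (95% interval -0.77 to 0.42) in cKO and 0.32 (-0.27 to 0.92) in dcKO. The dcKO value was -0.04 without replicate 2 and 0.58, with an edgeR adjusted p of 0.0174, without replicate 3, so it rested on which embryos were included. The number block, with 1 dcKO embryo against 1 control, turned the dcKO value to -0.49 and the averaged value from 0.08 to -0.31. The GC correction moved the cKO value to -0.44 (edgeR adjusted p = 0.0676).

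Cnot4, on chr6:35022065-35133724, did not separate in any comparison. Normalized counts were 1398, 1257 and 1295 in Ctrl, 1215, 1317 and 1514 in cKO, and 1321, 1688 and 1001 in dcKO. The highest and the lowest embryo were both dcKO. Its log2 fold change was 0.03 (95% interval -0.43 to 0.50) in cKO and 0.02 (-0.45 to 0.49) in dcKO, intervals that run from 0.74-fold to 1.42-fold in cKO and from 0.73-fold to 1.41-fold in dcKO.

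Tob1, Zfp36l1, Zfp36l2, Pum2 and Cnot4 shared their order within dcKO, with replicate 2 highest and replicate 3 lowest for each, while Btg1 and Btg3 were highest in replicate 1. Across all 9 embryos, the tested genes whose log2 normalized levels followed each adaptor most closely differed from adaptor to adaptor. For Tob2 they were Zcchc14 (Pearson r = 0.992) and AI849053 (0.987), for Btg1 Eid2b (0.977) and Pramef8 (0.972), and for Btg2 Sec22c (0.970) and Zbtb2 (0.969). For Zfp36l1 they were Secisbp2l (0.980) and Socs6 (0.976), for Zfp36l2 Lims1 (0.979) and Nfatc3 (0.977), and for Pum2 Phip (0.997). Tob1 was followed by Gm29170 (0.946) and Tpbg (0.913), Btg3 by Tmem17 (0.989) and Rsl1 (0.977), and Cnot4 by Zic5 (0.970) and Ndufab1 (0.948). These are among the 2 highest of 13680 correlations for each gene over 9 embryos that share 3 genotypes, and are given as descriptions.

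Other genes that connect mRNAs with CCR4-NOT gave a setting for these values. Of 23 further adaptors, 18 were tested. In the averaged mutants 2 had an adjusted p below 0.05 in edgeR, both lower, and 1 was called, beside 13% and 6.15% of all genes, so the counts are near the background. The passes in this comparison, those of the subunits included, were lost without any 1 of the Ctrl or cKO libraries. Samd4b, a Smaug-type RNA-binding protein, was at 2626 to 4047 normalized counts in Ctrl, 1438 to 1750 in cKO and 1036 to 2479 in dcKO. In the averaged mutants it fell by 1.06 on the log2 scale (edgeR adjusted p = 0.0286) and was the gene called, with log2 fold changes of -1.08 in cKO and -1.05 in dcKO. Tnrc6c, a GW182 protein that links microRNA complexes to CCR4-NOT, was at 2430 to 2878 in Ctrl, 1198 to 1367 in cKO and 995 to 2129 in dcKO, and its averaged log2 fold change was -0.88 (edgeR adjusted p = 0.0289). All 6 mutants were below every control for both genes. Ddx6, a decay helicase, had a log2 fold change of -0.79 in cKO and -0.13 in dcKO, and its edgeR adjusted p was not below 0.05 in the averaged mutants.

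The subunits and the poly(A)-binding proteins that adaptors contact were all tested. Of these 12 genes, 3 had an edgeR adjusted p below 0.05 in the averaged mutants, the deleted gene included, beside 13% of all genes. Cnot3 itself fell by 2.45 on the log2 scale (adjusted p = 0.0247). Pabpc4, a cytoplasmic poly(A)-binding protein, fell by 0.86 (adjusted p = 0.0247), and Cnot2, the partner of Cnot3 in the NOT module, rose by 0.78 (adjusted p = 0.0301). In cKO alone the Cnot2 log2 fold change was 0.72 (edgeR adjusted p = 0.0709). The authors reported that neither Cnot2 RNA by RT-qPCR nor its protein changed significantly in E12.5 cKO cortex. Cnot8, one of the deadenylases that BTG and TOB proteins bind, had a log2 fold change of 0.23 (adjusted p = 0.230), and its paralogue Cnot7, named after its values were seen, had 0.11 (adjusted p = 0.818). Of 6 tested genes in a list of 9 immediate early genes, the class with which Btg2 and Zfp36 are often listed, 0 had an edgeR adjusted p below 0.05 in the averaged mutants and 1 was lower at an unadjusted p below 0.05. That was Ier2, with a log2 fold change of -1.74 (adjusted p = 0.0623 in edgeR and 0.0108 in DESeq2). Atf3 had 1.05, Jun -0.52 and Egr1 -0.31. Their summed counts were 2786 to 5051 in Ctrl, 2509 to 2955 in cKO and 1805 to 4725 in dcKO.

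**Figure D4:**
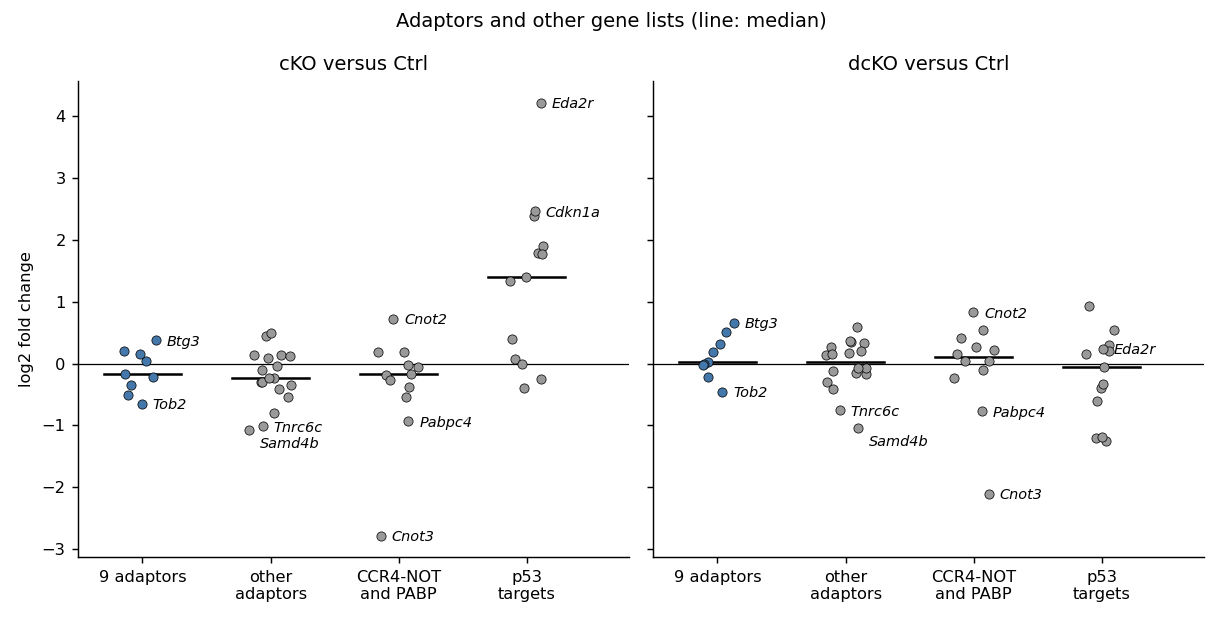
Log2 fold changes from edgeR (vertical axes) of the 9 adaptors (blue) and of 18 further adaptors, 12 CCR4-NOT and poly(A)-binding protein genes and 13 p53 targets (grey), in cKO and in dcKO versus the same 3 Ctrl embryos, with lines at the list medians. The adaptors lay between -0.65 and 0.37 in cKO and between -0.46 and 0.66 in dcKO, while the p53 targets had a median of 1.39 in cKO and -0.05 in dcKO.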

How the data were processed

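The cortex of single E12.5 embryos was sequenced by the authors as stranded poly(A)-selected libraries read from both ends. Per the authors' methods, adapters were trimmed with Cutadapt, reads were aligned to mm39 with STAR, and featureCounts assigned reads to genes. The deposited values are raw counts, whole numbers with no normalization, for 57010 genes, with 1 column for each of the 9 embryos. Groups and replicate numbers came from the sample titles.

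Counts were tested in R 4.3.3 with edgeR 4.0.16 (TMM factors, glmQLFTest), fitting the 3 groups of embryos together. The 13680 genes tested had counts above 10 in each of the 9 columns. Adjusted p-values are Benjamini-Hochberg values over all of them, and the SE is the log2 fold change divided by the square root of F. Normalized counts are reads scaled to a common TMM library size, and exact two-sided permutation tests used their log2 values plus 0.5. With 3 embryos against 3 that test cannot go below 0.1. DESeq2 1.42.0 and limma 3.58.1 (voom with sample quality weights) were alternatives, as were other factors, filters, blocks, a GC correction and leaving out each embryo. The code was tested on simulated data. Gene positions, exon lengths, GC content and 3′ UTRs came from GENCODE M21 (GRCm38), which shares 52081 identifiers with the table and is not the authors' build.

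The 9 genes and the other lists were chosen with earlier results of these data known. Named beside them were Cnot3 and Trp53, the 4 genes of each other list with the smallest p in the averaged mutants, and the 2 genes most correlated with each adaptor. Some genes that this choice would name, and 1 sequence, are not reported here.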

Additional observations from a re-analysis of the deposited data

How the results depend on the processing

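Apart from the settings named in the next sentences, every alternative run called 0 adaptors in each comparison. At an unadjusted p below 0.05 with no fold limit the number of adaptors was 1 in cKO, 3 in dcKO and 2 in the averaged mutants. With the number in the label codes as a block, 1 adaptor, Zfp36l2, was called in dcKO versus Ctrl (log2 fold change -1.23, edgeR adjusted p = 0.000792) and 1, again Zfp36l2, in dcKO versus cKO (-1.10), a fit in which dcKO replicate 3 is the only dcKO embryo sharing a number with a control and which called 11.9% and 11.6% of all genes. Of 747 alternative values for the 9 adaptors, 632 kept their direction and their side of an adjusted p of 0.05, and 44 kept their direction and passed it. Another 71 changed direction, counted whatever their adjusted p. These ran from as small as -0.00116 (Pum2, averaged mutants, filterByExpr) to as far as -1.10 (Zfp36l2, dcKO versus cKO, number block). The cause was not tested. Tob2 versus Ctrl and Btg2, Btg3, Zfp36l1, Zfp36l2 and Pum2 in cKO kept their direction under every alternative run.

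The changed directions, as log2 fold changes, were as follows. The GC correction gave -0.075 (Tob1), -0.068 (Btg1) and -0.18 (Cnot4) in cKO. In dcKO it gave -0.13 (Tob1), 0.56 (Zfp36l2), -0.19 (Pum2) and -0.53 (Cnot4), and in the averaged mutants -0.10, 0.25, -0.31 and -0.36 for the same genes. In dcKO versus cKO it gave -0.055 for Tob1. With the label number as a block, Pum2 was -0.49 in dcKO, -0.35 in dcKO versus cKO and -0.31 in the averaged mutants, Cnot4 was -0.37 in dcKO and -0.14 in the averaged mutants, and Btg3 was -0.45 in dcKO versus cKO. Cnot4 was -0.0022 in DESeq2, -0.0026 with RLE factors and -0.030 with only the embryos compared, all in dcKO. Without a filter, Cnot4 was -0.026 in cKO, -0.080 in dcKO and -0.053 in the averaged mutants, Pum2 was -0.00834 in the averaged mutants and Tob1 -0.014 in dcKO versus cKO. With filterByExpr, Cnot4 was -0.026, -0.065 and -0.046 in the same order and Pum2 -0.00116 in the averaged mutants. Upper-quartile factors, which moved the median of all genes in cKO from 0.01 to 0.12, gave -0.069 for Tob1 in dcKO versus cKO. In limma, Zfp36l2 was 0.038 in dcKO, and Tob2 was -0.041, Btg2 -0.048, Cnot4 0.019 and Cnot3 -0.72 in dcKO versus cKO. Blocking on the presence of Xist reads gave 0.024 (Zfp36l1) and 0.046 (Zfp36l2) in dcKO.

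Leaving out 1 embryo at a time moved these values across 0. In cKO, Cnot4 ran from -0.065 to 0.10. In dcKO, Zfp36l1 ran from -0.32 to 0.19, Zfp36l2 from -0.43 to 0.31, Pum2 from -0.037 to 0.58 and Cnot4 from -0.18 to 0.19. In dcKO versus cKO, Tob1 ran from -0.051 to 0.095, Btg2 from -0.047 to 0.24, Zfp36l2 from -0.21 to 0.53, Cnot4 from -0.22 to 0.16 and Cnot3 from -0.25 to 1.11. In the averaged mutants, Zfp36l2 ran from -0.32 to 0.047, Pum2 from -0.10 to 0.21 and Cnot4 from -0.073 to 0.11.

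The replicate numbers did not pair embryos: deviations from the group means correlated at -0.17 on average for the same number (9 pairs) and 0.084 for different numbers (18 pairs). The replicate block called 0 adaptors in each comparison, and 0 of all genes had an edgeR adjusted p below 0.05 in any comparison with the replicate block, where 2962 genes in cKO and 3169 in dcKO had an unadjusted p below 0.05 (3693 and 3994 without it). Combined with the GC correction, the replicate block gave -0.063 (Tob1), -0.068 (Btg1) and -0.19 (Cnot4) in cKO, -0.11 (Tob1), 0.41 (Zfp36l2), -0.20 (Pum2) and -0.55 (Cnot4) in dcKO, -0.051 (Tob1) in dcKO versus cKO, and -0.089, 0.17, -0.32 and -0.37 for Tob1, Zfp36l2, Pum2 and Cnot4 in the averaged mutants.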
